A study of Mus musculus with 2 samples.

Results

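The 10 genes described here encode surface, secreted or membrane-binding proteins, and each is used to tell apart kinds of progenitor in the stroma of white fat. They were picked by name out of the 32285 genes of the count tables. Dpp4, Pi16, Cd55, Clec3b and Anxa3 make up the interstitial set, and Icam1, F3, Gdf10, Ggt5 and Dpep1 the committed or regulatory set. Their levels were read chiefly in 860 fibroblastic cells out of 18753 cells that passed quality filters, 229 of them from mice on a low-fat diet and 631 from mice on a high-fat diet.

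White fat holds its adipocyte progenitors in a stroma of fibroblast-like cells. In the usual scheme, DPP4+ interstitial progenitors sit in the connective tissue around the fat lobules and give rise to ICAM1+ committed preadipocytes inside them, while CD142+ cells, named after the product of F3, restrain the differentiation of their neighbours and are called adipogenesis regulators (Aregs). DPP4 is a serine peptidase that trims peptide hormones and chemokines, PI16 a cysteine-rich secretory protein, CD55 a brake on complement, CLEC3B the plasminogen-binding lectin tetranectin and ANXA3 a calcium-dependent membrane-binding protein. ICAM1 is a ligand of leukocyte integrins, F3 is tissue factor, the starter of coagulation, GDF10 is a secreted protein of the TGF-beta superfamily, and GGT5 and DPEP1 are surface peptidases that act in turn on glutathione conjugates such as leukotrienes.

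Both groups were male mice of the genotype Cyp1a1Cre x R26LSL-eYFP, in which Cre made under the Cyp1a1 promoter turns on the fluorescent protein eYFP for good, so that an eYFP+ cell has, at some time, transcribed Cyp1a1, a gene induced by the aryl hydrocarbon receptor (AHR). Mice ate a purified diet with 10% fat (LFD) or 60% fat (HFD) for 12 weeks, and all were given FICZ, a ligand of AHR, at 10 mg/kg, 5 days ahead of the collection of perigonadal white adipose tissue (gWAT), so no library lacked the ligand. Live eYFP+ cells of the stromovascular fraction were sorted, and 1 droplet library of 3′ transcript ends was made per diet from mice that the study describes as pooled. Cells that never switched on the Cyp1a1 promoter are not in these data, and with 1 library per diet no difference between diets has a replicate check or a test. All intervals given are 95% intervals for counting error alone, so variation among mice, sorts or libraries lies outside them.

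The LFD library held 114311020 unique molecular identifiers (UMIs, each standing for 1 captured transcript) in 11281 barcodes, and the HFD library 119498750 in 9631. Fibroblastic cells were those in which at least 5 genes had a UMI out of 8 matrix and secreted-protein genes, Dpt, Mfap5, Col14a1, Postn, Svep1, Sfrp1, Mfap4 and Pla1a. They were 2.24% (1.96 to 2.55%) of the 10216 cells of the LFD library against 7.39% (6.85 to 7.97%) of the 8537 of the HFD library, with nearly equal median depths of 11138 and 11099 UMIs. The receptor Pdgfra, which defines adipose progenitors, had a UMI in 94.3% of the LFD and 92.2% of the HFD cells, whereas the leukocyte gene Ptprc stood at 10.8 and 13.3 counts per 1000000 UMIs (CPM) and the endothelial gene Pecam1 at 5.03 and 11.2 CPM. Wt1, which marks visceral mesothelium and the visceral progenitors related to it, had a UMI in 79.9% and 79.6% of them. In 24 LFD and 61 HFD cells the markers of another cell class also reached that class's threshold.

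The promoters of these genes were looked up because every sorted cell came from an AHR target reporter. RefSeq windows of 300 bases around the start site (GRCm38.p6) were found for 7 of the 10 genes. Clec3b, Anxa3 and Ggt5 were not analysed here in this respect. The AHR response element core GCGTG, read on both strands (CACGC on the reverse), occurred in 4 of these 7 windows, those of Cd55, Icam1, Gdf10 and Dpep1, against 32.4% of all 32851 windows, and not in those of Dpp4, Pi16 and F3. A match of these letters is a description and not a binding site. The 250 bases before the start site are shown for Dpp4, which had the largest difference between diets and no core, for Icam1, which had the smallest difference and 1 core, and for Gdf10, which had 2 cores. They are written 5′ to 3′ on the strand of the gene with each core in capitals, and lie at chr2:62412232-62412481 (minus strand), chr9:21015690-21015939 (plus strand) and chr14:33923337-33923586 (plus strand).
Dpp4: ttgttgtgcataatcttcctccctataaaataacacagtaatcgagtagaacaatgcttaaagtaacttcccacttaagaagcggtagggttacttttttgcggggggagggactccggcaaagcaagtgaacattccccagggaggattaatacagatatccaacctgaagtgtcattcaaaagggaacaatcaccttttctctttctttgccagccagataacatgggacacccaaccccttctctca
Icam1: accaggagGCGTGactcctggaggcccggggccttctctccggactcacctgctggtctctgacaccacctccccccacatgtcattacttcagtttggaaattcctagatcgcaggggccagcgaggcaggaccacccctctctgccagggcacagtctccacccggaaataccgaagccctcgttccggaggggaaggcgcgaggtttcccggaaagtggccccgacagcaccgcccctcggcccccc
Gdf10: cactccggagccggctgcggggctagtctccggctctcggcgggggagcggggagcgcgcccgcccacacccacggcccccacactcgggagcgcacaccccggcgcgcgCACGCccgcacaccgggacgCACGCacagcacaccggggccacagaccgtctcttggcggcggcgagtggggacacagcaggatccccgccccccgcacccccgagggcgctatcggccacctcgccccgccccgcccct

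Summed over the fibroblastic cells, all 5 interstitial genes stood at a higher level in the HFD library, by 2.20 to 6.90 times. Among the committed or regulatory genes F3 was 2.30 times as high, Gdf10, Ggt5 and Dpep1 were 1.51 to 1.71 times as high, and Icam1 was at nearly the same level in both libraries. A level here is the number of UMIs of a gene summed over the cells of a class per 1000000 UMIs of that class. Because the chemistry tags the 3′ end of each transcript, levels were not divided by gene length.

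Dpp4 (chr2:62330073-62412231, minus strand, GRCm38) had 29 UMIs in LFD and 547 in HFD fibroblastic cells, or 10.4 CPM (6.98 to 15.0) and 71.9 CPM (66.0 to 78.2). The ratio of HFD to LFD was 6.90 (4.75 to 10.4), the highest of the 10. A UMI of Dpp4 was found in 22 LFD and 258 HFD cells. Over cells of at least 5000 UMIs, each thinned to 5000, the share with Dpp4 was 4.64% in LFD and 25.6% in HFD. At the same thinned depth it was 2.38% and 0.506% of macrophage-like cells, which had median depths of 4713.5 and 6450 UMIs and the lowest HFD level of the 10 classes compared. The gene was sparse in the LFD cells, and its value there rests on few molecules.

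Pi16 (chr17:29317680-29330593, plus strand) had 90 and 853 UMIs, that is 32.3 CPM (26.0 to 39.7) with LFD against 112 CPM (105 to 120) with HFD, which is 3.47 (2.79 to 4.36) times as high. Its UMIs were unevenly spread: in LFD the 22 cells richest in it held 76.7% of them, and a cell held at most 13 UMIs of Pi16 in LFD and 29 in HFD. Clec3b (chr9:123150946-123157432, plus strand) was the most abundant interstitial gene, at 275 CPM (256 to 295) with LFD against 915 CPM (893 to 936) with HFD, which is 3.32 (3.08 to 3.59) times as high. At 5000 UMIs it was detected in 54.0% of LFD and 84.9% of HFD cells, against 0.370% and 0.819% of plasma-like cells, which had median depths of 13427.5 and 14125 UMIs. Among these 5 genes, Clec3b was the most widely shared and Dpp4 and Pi16 marked smaller parts of the class.

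Anxa3 (chr5:96793339-96845966, plus strand) stood at 51.4 CPM (43.3 to 60.5) with LFD against 218 CPM (208 to 229) with HFD, for a ratio of 4.24 (3.57 to 5.07), and was detected in 18.8% and 47.7% of cells at 5000 UMIs. Cd55 (chr1:130439027-130462744, minus strand) had the smallest ratio of the set, 2.20 (1.94 to 2.51), from 98.4 CPM (87.1 to 111) to 217 CPM (206 to 227). Its near-identical neighbour Cd55b took 3 and 8 UMIs in the same cells, so reads assigned to the copy were few, although reads shared between the copies cannot be seen in the table.

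Icam1 (chr9:21015985-21028817, plus strand), the gene that names the committed preadipocytes, stood at 174 CPM (158 to 190) with LFD against 181 CPM (171 to 191) with HFD, and its ratio of 1.04 had an interval (0.939 to 1.16) that includes 1. It was detected in 52.6% and 49.7% of cells at 5000 UMIs, and its level over all fibroblastic cells did not differ between the libraries beyond counting error. F3 (chr3:121723537-121735048, plus strand) did not follow it: 61.4 CPM (52.6 to 71.4) with LFD against 141 CPM (133 to 150) with HFD gave a ratio of 2.30 (1.96 to 2.72), and the share of cells at 5000 UMIs was 24.0% and 44.8%.

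Dpep1 (chr8:123186242-123201812, plus strand) was the most abundant gene of the set, at 286 CPM (266 to 306) against 480 CPM (464 to 496), for a ratio of 1.68 (1.56 to 1.82), and was found in 69.6% and 82.0% of cells at 5000 UMIs. Ggt5 (chr10:75589340-75617200, plus strand) stood at 43.1 CPM (35.7 to 51.5) against 73.6 CPM (67.6 to 80.0), for a ratio of 1.71 (1.40 to 2.10). Gdf10 (chr14:33923587-33937983, plus strand) stood at 46.7 CPM (39.0 to 55.5) against 70.5 CPM (64.6 to 76.7), for a ratio of 1.51 (1.24 to 1.84). The intervals of Dpep1, Ggt5 and Gdf10 overlap each other and lie above 1. In plasma-like cells these 3 genes had at most 1.13 CPM in either library, whereas Ggt5 reached 20.8 and 27.1 CPM in neutrophil-like and 14.4 and 25.7 CPM in dendritic-like cells.

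Summed over the sets, the interstitial genes held 468 CPM with LFD against 1533 CPM with HFD, for a ratio of 3.28 (3.10 to 3.47), and the committed or regulatory genes 610 against 946 CPM, for a ratio of 1.55 (1.47 to 1.64). The committed or regulatory sum was the larger of the pair in LFD and the smaller in HFD, where Clec3b alone made up 915 of the 1533 CPM. This order depended on the cells: with all 8 gate genes the interstitial sum was the larger in LFD (647 against 613 CPM), and with 5 gate genes it was the smaller in HFD (517 against 635 CPM). Of the 10 genes, 6 had a ratio of at least 2, namely the interstitial set and F3, against 6.86% of the 11866 genes with at least 20 UMIs in these cells, and 0 had a ratio of at most 0.5, against 2.44% of the same genes. The median ratio over all of these genes was 1.08. Because the 10 genes were chosen with earlier results of these data known, their counts are a description.

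**Figure D1:**
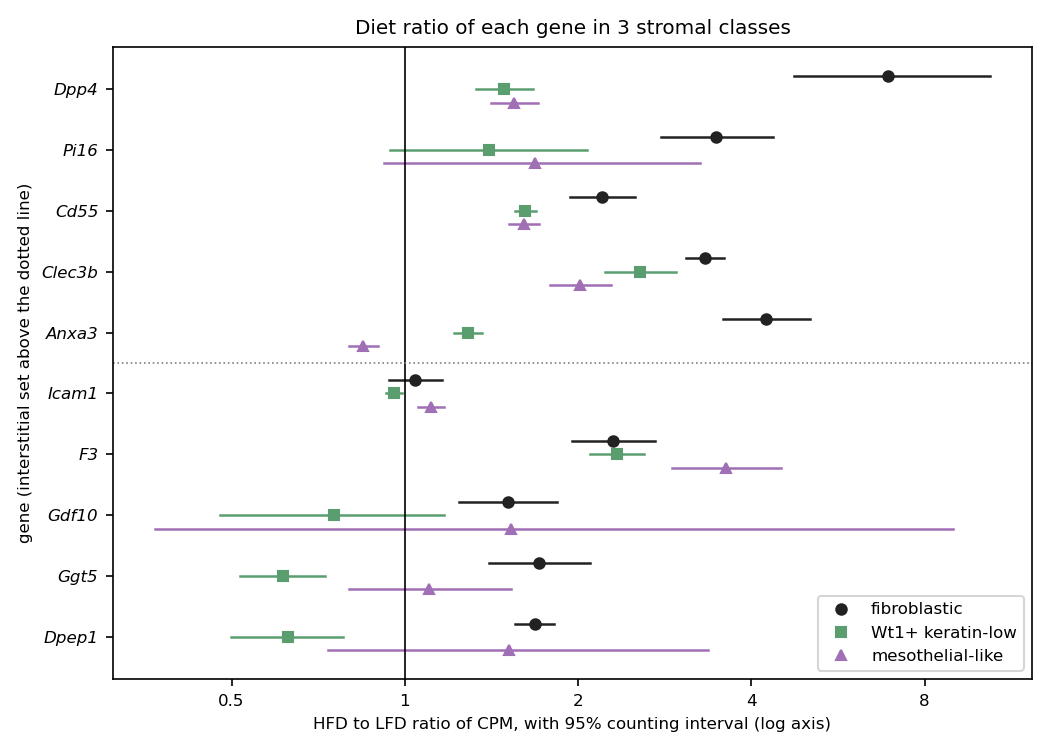
Ratio of HFD to LFD level (x axis, log scale) of each of the 10 genes (y axis) in the fibroblastic, Wt1+ keratin-low and mesothelial-like classes, with 95% counting intervals as bars and 1 library per diet. In fibroblastic cells the interstitial genes lie between 2.20 and 6.90, and Icam1 at 1.04.

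The size of these ratios depended on how many of the 8 gate genes a cell showed. The gate genes themselves differed between libraries within the gated cells, Dpt standing at 491 and 1166 CPM, Pla1a at 88.4 and 314 CPM and Sfrp1 at 775 and 627 CPM in LFD and HFD. Cells with exactly 5 gate genes, the lowest number admitted, were 32 of the LFD and 37 of the HFD cells, and those with 4, just outside, numbered 34 and 29. The interstitial ratio was 1.67 (1.33 to 2.11) in cells with 5 gate genes, 4.99 (4.41 to 5.67) with 6, 3.32 (3.01 to 3.66) with 7 and 2.32 (2.10 to 2.56) with all 8, whereas the committed or regulatory ratio lay between 1.25 and 1.68. In cells with all 8, Dpp4 had a ratio of 3.35, Pi16 1.74, Cd55 1.57, Anxa3 2.29 and Gdf10 3.66, so the 5 genes past 2 there were Dpp4, Clec3b, Anxa3, F3 and Gdf10. Of all 9599 genes measured in those cells, 8.09% had a ratio of at least 2. In the few cells with exactly 5, Cd55 had a ratio of 0.830 (0.479 to 1.44) and Pi16 of 1.16 (0.276 to 5.60), so neither was higher in HFD beyond counting error there. Cells with and without a UMI of Wt1 gave interstitial ratios of 3.22 and 3.62, but single genes differed more. Anxa3 had ratios of 3.70 (3.07 to 4.49) and 7.89 (5.04 to 13.1), Dpp4 of 5.82 and 37.3, the latter from 1 LFD UMI, and Icam1 of 0.982 (0.877 to 1.10) and 1.44 (1.09 to 1.93), so Icam1 was higher in HFD among the 46 LFD and 129 HFD cells without Wt1. What part the gate genes had in the diet ratios was not tested.

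Markers of other cells were measured in the fibroblastic cells as well. The 9 macrophage markers summed to 65.7 CPM in LFD and 89.6 CPM in HFD, against 8185 and 9250 CPM in macrophage-like cells, and the 7 dendritic markers to 9.34 and 11.8 CPM, against 1169 and 1444 CPM, with 4 of them at 0 in LFD and 3 in HFD. The 9 endothelial markers summed to 51.7 and 100 CPM, against 5994 and 8003 CPM, and the 10 plasma cell markers to 983 and 786 CPM, against 13900 and 20977 CPM. The plasma cell sum in LFD exceeded that of either gene set, but its genes differed in how far they set plasma-like cells apart. In LFD, Fkbp11 stood at 296 CPM and Sdc1 at 76.2 CPM, against 574 and 108 CPM in plasma-like cells. Jchain stood at 426 against 8385 CPM. That sum is therefore not a measure of plasma cell transcripts alone. The neutrophil markers summed to 225 and 91.2 CPM, the B cell markers to 97.7 and 61.4 CPM, the mural markers to 54.6 and 34.4 CPM, the mesothelial markers to 39.2 and 63.4 CPM and the T/ILC markers to 12.9 and 13.9 CPM. What part these markers had in the diet ratios was not tested. Without the 24 and 61 cells that also met another class's threshold, the ratio was 9.27 for Dpp4, 3.97 for Anxa3, 3.36 for the interstitial sum and 1.59 for the committed or regulatory sum.

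Outside the fibroblastic cells, the 10 genes ranged from those nearly restricted to them to those that were more abundant elsewhere. Dpep1 and Gdf10 had 67.9% and 61.9% of all their UMIs in LFD, and 94.4% and 89.3% in HFD, within the fibroblastic cells, which held only 2.51% and 6.73% of all UMIs. For Clec3b these shares were 50.1% and 78.2%, for Pi16 43.5% and 87.5%, for F3 17.7% and 40.1%, and for Ggt5 14.1% and 56.7%. For Dpp4, Cd55, Anxa3 and Icam1 they were 1.48% to 3.66% in LFD and 9.70% to 16.5% in HFD.

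Dpep1 was 41.3 times as high in fibroblastic cells as in the next class in LFD, the neutrophil-like cells with only 3 UMIs, and 161 times in HFD, and Gdf10 42.6 and 85.2 times. Clec3b stood 12.3 and 20.3 times above the mesothelial-like cells, which were next with 22.3 and 45.1 CPM. F3 led in fibroblastic cells by 6.57 and 5.87 times, followed by the Wt1+ keratin-low cells (9.36 CPM) in LFD and the mesothelial-like cells (24.1 CPM) in HFD. Ggt5 was highest in fibroblastic cells, but its interval overlapped that of the neutrophil-like cells in both libraries (20.8 CPM from 9 UMIs and 27.1 CPM from 4). Pi16 also appeared in the neutrophil-like cells, at 36.9 CPM (21.1 to 59.9) in LFD from 16 UMIs in 15 of 158 cells, an interval that overlaps the fibroblastic 32.3 CPM, and at 20.3 CPM from 3 UMIs in 46 HFD cells. Those cells were shallow, with median depths of 1275.5 and 1024.5 UMIs.

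Dpp4, the name-giving gene of the interstitial progenitors, was highest in dendritic-like cells, at 154 CPM (124 to 191) with LFD and 234 CPM (198 to 275) with HFD. In HFD the fibroblastic cells came next, ahead of the mesothelial-like cells at 61.6 CPM. In LFD they ranked sixth, with an interval that overlapped the 10.4 CPM of the Wt1+ keratin-low cells. Anxa3 was highest in macrophage-like cells (406 and 467 CPM) and then in endothelial-like cells (282 and 279 CPM), ahead of the fibroblastic cells in both libraries. In LFD, Cd55 had overlapping intervals in mesothelial-like (99.2 CPM), fibroblastic (98.4 CPM) and B-like cells (92.8 CPM), and in HFD it was highest in the fibroblastic cells, 1.35 times above the mesothelial-like cells. Icam1 was found across the classes, from 279 CPM in LFD neutrophil-like cells through 196 and 179 CPM in endothelial-like cells to 37.6 and 21.3 CPM in plasma-like cells. Its fibroblastic level did not stand apart from that of the endothelial-like cells in either library.

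**Figure D2:**
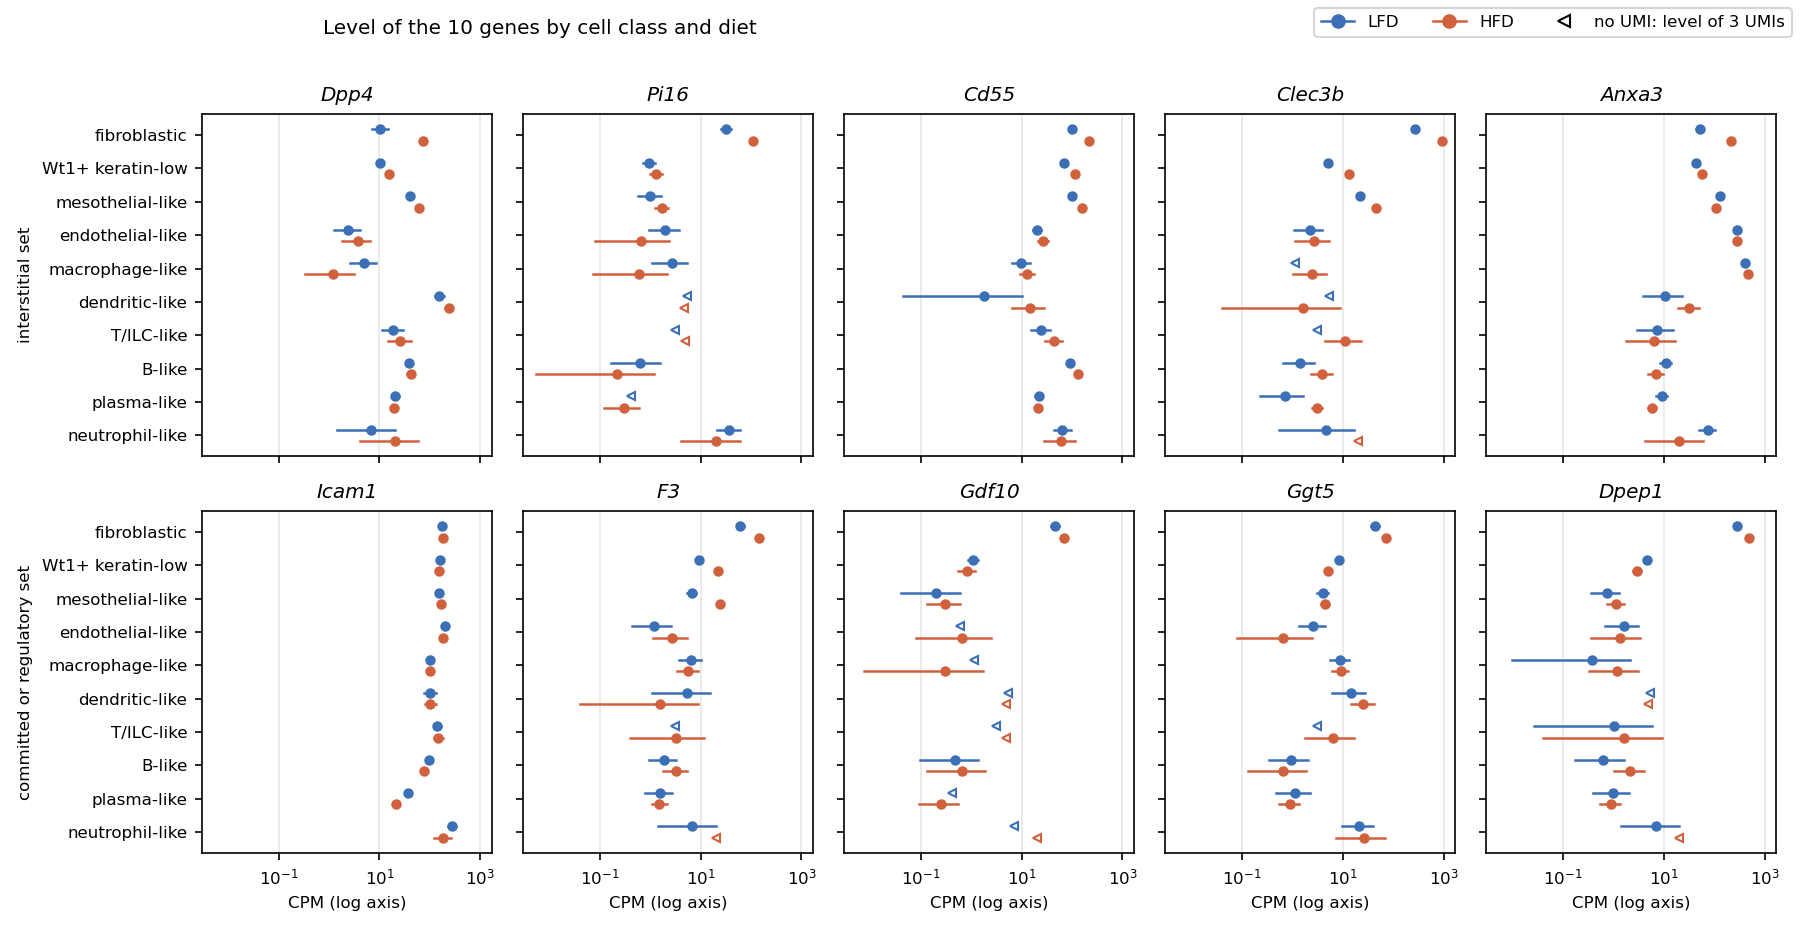
Level of each gene in CPM (x axis, log scale) in 10 cell classes (y axis), LFD in blue and HFD in orange, with points for the level, bars for the 95% Poisson interval and open triangles at the level of 3 UMIs where a class had none. Dpep1, Gdf10 and Clec3b stand apart in the fibroblastic cells, whereas Icam1 lies between 75.1 and 279 CPM in every class but the plasma-like cells and Dpp4 is highest in the dendritic-like cells.

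The ratios in the other large stromal classes show which of the differences were shared. The Wt1+ keratin-low cells (4869 LFD and 2146 HFD cells) and the mesothelial-like cells (940 and 1413) had more Clec3b in HFD, by 2.56 (2.23 to 2.96) and 2.02 (1.78 to 2.29) times, and more F3, by 2.33 (2.10 to 2.60) and 3.61 (2.92 to 4.51) times. Clec3b was scarce in the other classes, and its ratio there varied. It stood at 0.707 and 3.11 CPM in plasma-like cells, a ratio of 4.39 (1.80 to 13.9), and had a ratio of 2.79 (1.19 to 7.05) in B-like cells, with 0 and 8 UMIs in macrophage-like cells and 0 and 7 in T/ILC-like cells. In endothelial-like cells it had 11 and 8 UMIs and a ratio of 1.22 (0.426 to 3.33), and in neutrophil-like cells 2 and 0 UMIs. The part of free RNA in the Clec3b ratios was not tested. Cd55 was 1.62 and 1.61 times as high, and Dpp4 1.49 and 1.55 times. For Dpp4, Cd55, Clec3b and Anxa3 the intervals in these classes lay below that in the fibroblastic cells. Anxa3 had ratios of 1.29 (1.22 to 1.36) and 0.847 (0.799 to 0.898) in them, and Icam1 of 0.956 (0.926 to 0.988) and 1.11 (1.06 to 1.17). The interstitial sum had ratios of 1.53 and 1.30 and the committed or regulatory sum of 1.00 and 1.22. In both classes the ratios of the sums thus differed less from each other than in the fibroblastic cells, and least in the mesothelial-like cells.

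Whether single cells carried the genes of one set or of both was read at 5000 UMIs per cell, which left out 7 LFD and 33 HFD cells below that depth. Cells with more interstitial than committed or regulatory genes were 18.0% (13.2 to 23.7%) of the 222 cells from LFD against 37.0% (33.1 to 41.0%) of the 598 from HFD. Cells with more committed or regulatory genes were 54.5% (47.7 to 61.2%) and 38.5% (34.5 to 42.5%). The HFD cells had a mean of 2.38 interstitial genes against 1.23 in LFD, and 2.29 committed or regulatory genes against 1.78. Among cells with all 8 gate genes, those with more interstitial genes were 38.2% in LFD and 44.5% in HFD, so there the diets lay closer.

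Genes of both sets were detected in the same cells, which for widely detected genes such as Dpep1, Icam1 and Clec3b does not tell kinds of cell apart. At least 1 gene of each set was detected in 68.5% (61.9 to 74.5%) of the LFD against 90.1% (87.5 to 92.4%) of the HFD cells, and at least 3 of each in 1.80% (0.493 to 4.55%) and 20.1% (16.9 to 23.5%). Cells with no interstitial gene were 26.6% of LFD and 5.52% of HFD cells. Dpp4 or Pi16 was detected in 12.6% (8.55 to 17.7%) and 44.6% (40.6 to 48.7%), and Icam1 or F3 in the absence of both of them in 54.1% (47.3 to 60.7%) and 39.1% (35.2 to 43.2%). Cells with Dpp4 or Pi16 together with Icam1 or F3 were 6.31% and 31.1%. A gene without a UMI at this depth may still be transcribed, so these shares count detection and not expressing cells.

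**Figure D3:**
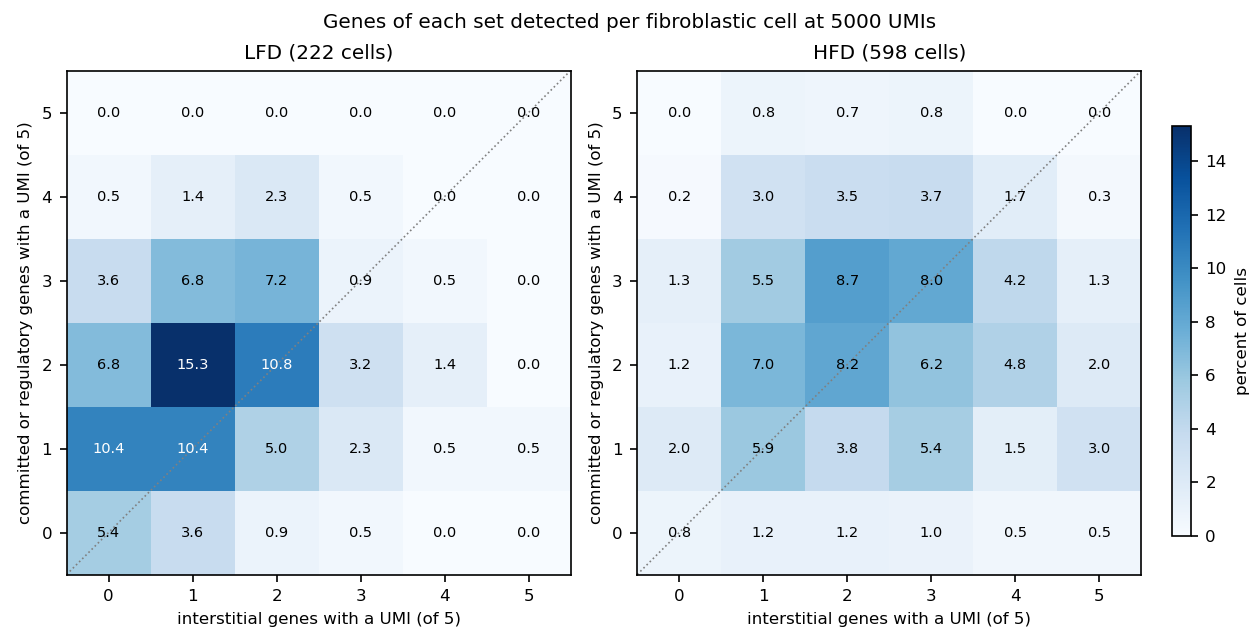
Percent of fibroblastic cells (colour and printed number) by how many interstitial genes (x axis) and committed or regulatory genes (y axis) had a UMI once each cell was thinned to 5000 UMIs, for 222 LFD and 598 HFD cells, with equal numbers on the dotted line. Cells lie mainly above the line in LFD, 54.5% of them, and on both sides of it in HFD, 38.5% above and 37.0% below.

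In the HFD library, cells with Dpp4 or Pi16 and cells without had overlapping intervals for each of the committed or regulatory genes. Icam1 was detected in 50.6% (44.4 to 56.7%) of the 267 cells with Dpp4 or Pi16 and in 47.4% (41.9 to 53.0%) of the 331 cells without, and F3 in 44.9% and 43.2%. Anxa3 was found in 58.8% (52.6 to 64.8%) against 40.8% (35.4 to 46.3%), and Cd55 in 61.4% (55.3 to 67.3%) against 36.9% (31.6 to 42.3%), so in HFD these interstitial genes were detected more often beside Dpp4 or Pi16. In LFD only 28 cells had Dpp4 or Pi16. Of these, 3 had F3 (10.7%, 2.27 to 28.2%) and 14 had Ggt5 (an interval of 30.6 to 69.4%), against 25.8% and 13.9% of the 194 cells without. Dpep1 was found in 96.4% (81.7 to 99.9%) of the 28 cells against 67.0% (59.9 to 73.6%), and Clec3b in 85.7% (67.3 to 96.0%) against 46.9% (39.7 to 54.2%), so in LFD 2 genes of the committed or regulatory set, Dpep1 and Ggt5, were detected more often beside Dpp4 or Pi16.

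Across cells of a library, pairs of interstitial genes had the highest median correlation and pairs across the sets the lowest, although single pairs in LFD did not follow this order. The median Pearson r of the 10 interstitial pairs was 0.134 in LFD and 0.268 in HFD. In LFD they lay between 0.00562 (Clec3b with Anxa3) and 0.398 (Pi16 with Clec3b), while pairs across the sets reached 0.354. In HFD all 10 lay between 0.178 (Pi16 with Anxa3) and 0.416 (Pi16 with Cd55). The committed or regulatory pairs had medians of 0.0438 and 0.105. Pairs across the sets had medians of 0.0155 and -0.0373, with 9 and 17 of 25 below 0. These values describe 222 and 598 cells that share a library, and in counts this sparse a value near 0 carries no finding.

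Clec3b and the peptidases Dpep1 and Ggt5 crossed the division. Clec3b had an r of 0.241 in LFD and 0.394 in HFD with Dpep1, and of 0.326 and 0.249 with Ggt5, within or above its range with its own set in HFD (0.203 to 0.325). Pi16 with Ggt5 gave 0.354 in LFD and -0.115 in HFD. The mean levels of the sets had an r of 0.213 over 229 LFD cells and of -0.0512 over 631 HFD cells.

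**Figure D4:**
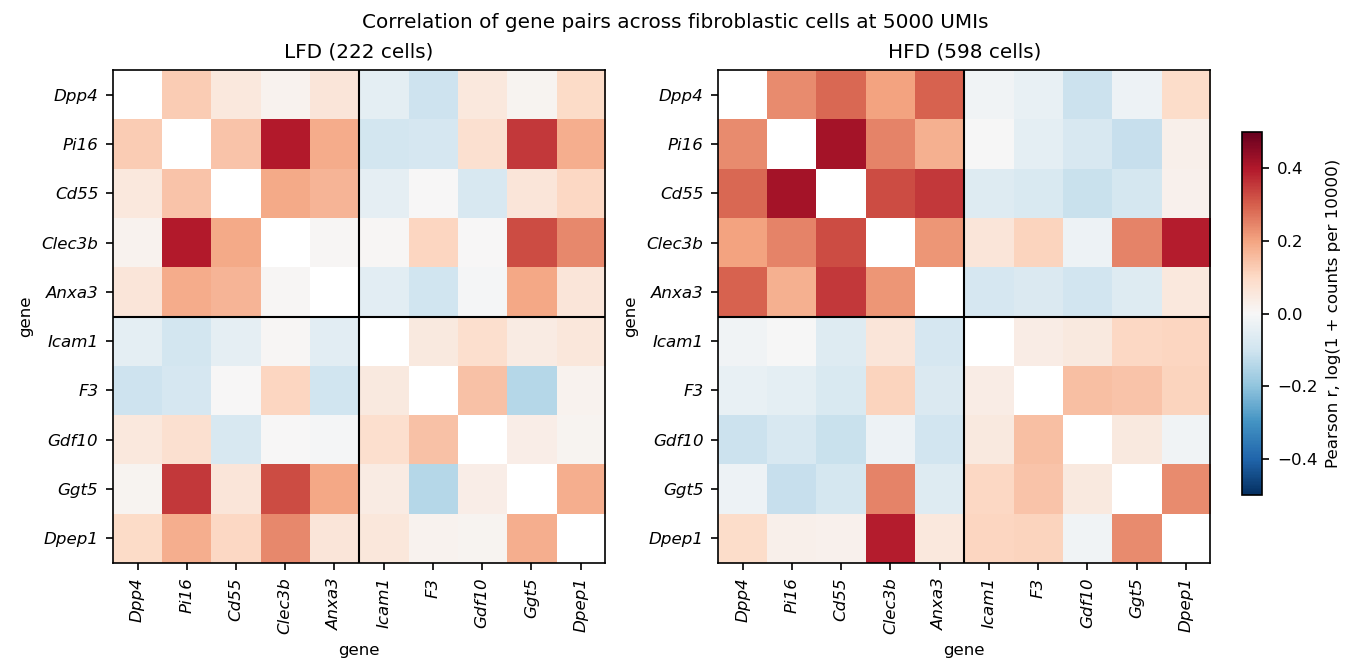
Pearson r of each pair of the 10 genes (both axes) across fibroblastic cells thinned to 5000 UMIs, 222 in LFD and 598 in HFD, from blue (negative) to red (positive), with the sets divided by black lines and the diagonal left blank. The block of interstitial pairs is red throughout in HFD (0.178 to 0.416), and Clec3b with Dpep1 is the strongest pair across the sets there (0.394).

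Among 7836 other genes with a UMI in at least 10% of the fibroblastic cells of each library, those most like the interstitial set in both libraries were Ly6c1, with an r of 0.636 in LFD and 0.552 in HFD, Ly6a (0.533 and 0.585), the gene of the stem cell antigen Sca-1, Plpp3, Dpt, which is a gate gene, and Tnxb, which encodes a tenascin of loose connective tissue. Those most like the committed or regulatory set were Itm2b (0.479 and 0.481), Serping1, C4b, Cxcl12 and Selenop. Serping1 and C4b encode a complement inhibitor and a complement component. For the difference between the set means, the highest were Ly6c1, S100a10, Creb5, Prss23 and Sfrp4 (0.316 to 0.381 in LFD, 0.379 to 0.530 in HFD) and the lowest Mylk, Col15a1, Vcam1, Tmem176a and Cygb. Of these, Vcam1 (-0.269 and -0.363) encodes an adhesion ligand of leukocytes and Col15a1 (-0.303 and -0.275) a basement membrane collagen. Of the 8 gate genes, Dpt, Col14a1, Pla1a and Svep1 had an r of 0.345 to 0.506 with the interstitial set over both libraries, Svep1 also having 0.323 and 0.403 with the committed or regulatory set. The other gate genes did not do so in both libraries, with 0.141 and 0.414 for Mfap5, -0.0603 and 0.275 for Postn, 0.142 and -0.0200 for Mfap4 and 0.0614 and -0.354 for Sfrp1 in LFD and HFD.

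Other genes of the same progenitor kinds were taken from 3 lists. Of 15 further interstitial genes, 14 had at least 20 UMIs over both libraries. A gene scarce in LFD can reach 20 UMIs through the HFD library alone, as Bmp7, Opcml, Efhd1, Wnt2, Limch1 and Dact2 did, so the lists were counted over genes with at least 20 UMIs in LFD by themselves, a choice made after the data were seen. All 8 such genes of the interstitial list had a ratio of at least 2, against 2.63% of all 8926 such genes. The lists were chosen with earlier results of these data known, so their counts are a description and no independent support. Sema3c, a guidance cue of the semaphorin family, had 20 and 676 UMIs and a ratio of 12.4 (7.94 to 20.4), the transcription factor gene Creb5 42 and 830 UMIs and a ratio of 7.23 (5.30 to 10.1), and the chemokine-scavenging receptor gene Ackr3 a ratio of 4.17 (3.35 to 5.27). Wnt2, which encodes a ligand of the Wnt pathway, had 9 and 86 UMIs and a ratio of 3.50 (1.76 to 7.90). Ly6c1 had a ratio of 2.74, Fbn1, the gene of the microfibril protein fibrillin-1, 2.35, and the hyaluronan synthase gene Has1 2.31. Efhd1 had 1 UMI in LFD against 154 in HFD, and a ratio of 56.3 with an interval from 9.96 to 2240. Opcml and Bmp7 had 0 UMIs in LFD and 66 and 20 in HFD, and set against a floor of 3 UMIs in LFD their ratios were 8.05 and 2.44, while the exact intervals began at 6.37 and 1.81, so a ratio of 2 for Bmp7 is not assured. Dact2 was the measured gene of the list under 2, at 1.71 (0.694 to 5.04).

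Of 13 genes of committed preadipocytes, 11 had at least 20 UMIs in LFD, and 3 of these had a ratio of at least 2, against the same 2.63%. Over all 13, which had at least 20 UMIs over both libraries, the genes above 2 were the fatty acid transporter gene Cd36 (3.26), the preadipocyte factor gene Dlk1 (3.96, from 6 and 65 UMIs), the lipocalin gene Apod (2.87) and Col4a1 (2.01), and the gene under 0.5 was the chemokine gene Cxcl14 (0.472, 0.335 to 0.669). Pparg, the master regulator of adipogenesis, had 13 and 36 UMIs and a ratio of 1.01 (0.525 to 2.08), Fabp4 a ratio of 1.25 (1.18 to 1.32), the lipoprotein lipase gene Lpl 1.31 (1.24 to 1.39) and Vcam1 0.678 (0.624 to 0.737). Of 8 Areg genes, 5 had at least 20 UMIs in LFD, and 1 of these, Fmo2 (2.92, 2.10 to 4.16), had a ratio of at least 2. Meox2, which passed through the HFD library, had 7 and 77 UMIs and a ratio of 4.02. The matrix genes Mgp and Bgn of that list had ratios of 0.808 (0.787 to 0.829) and 1.04 (1.01 to 1.07).

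**Figure D5:**
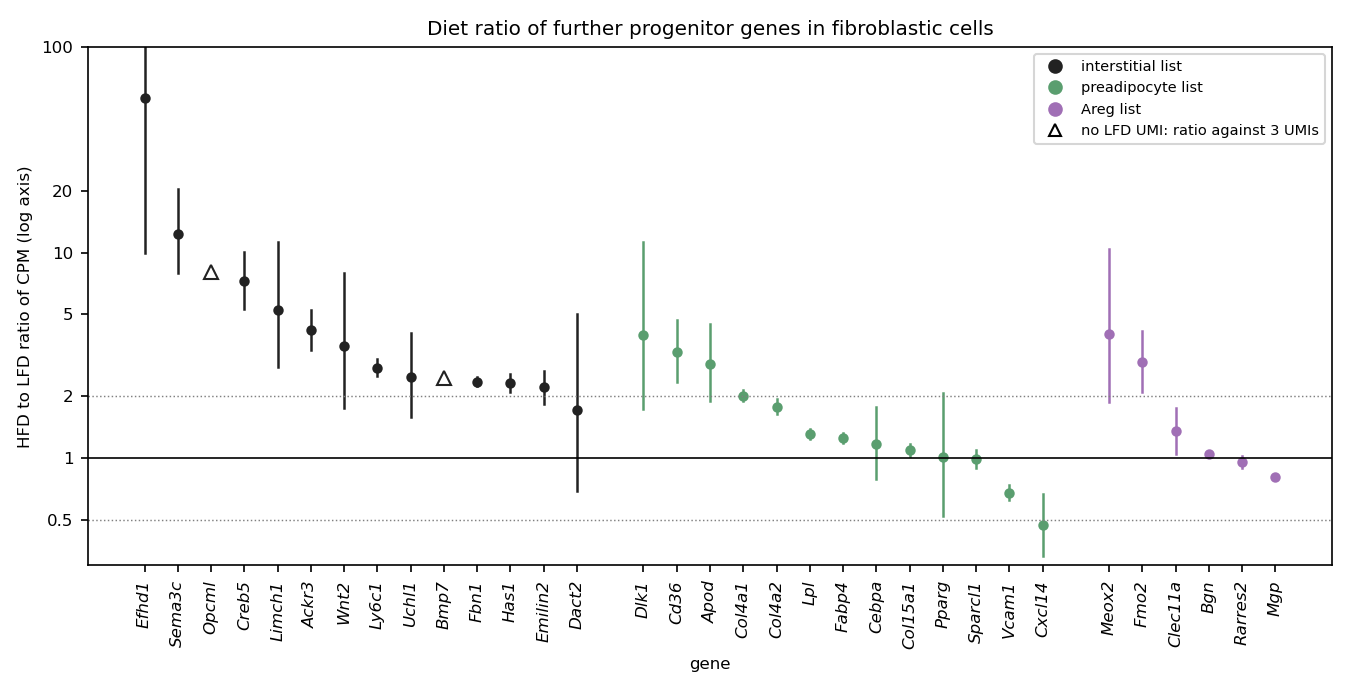
Ratio of HFD to LFD level (y axis, log scale) in fibroblastic cells of the measured genes (x axis) of the interstitial, preadipocyte and Areg lists, with 95% counting intervals, dotted lines at 0.5 and 2, and the Efhd1 interval clipped at the top of the axis. Among genes with at least 20 LFD UMIs, 8 of 8 of the interstitial list, 3 of 11 of the preadipocyte list and 1 of 5 of the Areg list lie above 2, against 2.63% of all such genes, and Opcml and Bmp7 are open triangles at their ratio to 3 LFD UMIs. The lists were chosen with earlier results of these data known.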

How the data were processed

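Per the file headers and the submitters' processing notes, the authors aligned reads to mm10 with STAR in Cell Ranger 4.0.0. The deposited matrices hold raw UMI counts per gene and barcode, unnormalized, with 500 or more UMIs per barcode. The annotation release was not given in the sources used here, and positions are lookups in GENCODE M21 (GRCm38). Cells were kept with 500 to 40000 UMIs, under 12.5% mitochondrial UMIs and at least 100 genes, which left 10216 LFD and 8537 HFD cells with median depths of 10636.5 and 13231 UMIs. The libraries shared 27 barcodes, none of them a fibroblastic LFD cell.

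Cells were put in classes by how many marker genes of a list had a UMI. Endothelial-, mural-, B- and dendritic-like cells needed 3, macrophage-, T/ILC- and neutrophil-like cells 4, and plasma- and mesothelial-like cells 5, each outside the fibroblastic gate. The Wt1+ keratin-low class held cells with a UMI of Wt1 that met no threshold, and 212 LFD and 314 HFD cells that met several were set apart. The 13 LFD and 6 HFD mural-like cells were too few to compare. No doublet caller was run. Counts were summed per class and library and given as CPM with exact Poisson intervals, shares with exact Clopper-Pearson intervals, and ratios with exact conditional binomial intervals for a pair of Poisson counts. With 1 library per diet no test was made. Thinned shares are the expected detection at a fixed number of UMIs, over the cells that reached that number. Cells were also thinned at random to 5000 UMIs with a fixed seed for the shares of cells by set and for pair correlations, computed on log(1 + counts per 10000). Likeness used unthinned cells. Genes named from the lists had at least 20 UMIs and a ratio past 2 or are named to describe the list, the latter chosen after their values were seen. The genes and lists were chosen with earlier results of these data known. Alternatives were the number of gate genes, the gate without Mfap5, leaving out cells that met another class's threshold, 2000 UMIs, 5% mitochondrial UMIs, median-ratio scaling, the mean of per-cell CPM, a minimum of 100 UMIs per gene, thinning to 10000 UMIs and, added after the data were seen, cells with all 8 gate genes. Ratios and thinning were tested on simulated data. Python 3.11.15 with numpy 2.4.6, scipy 1.17.1 and pandas 2.3.3 was used.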

Additional observations from a re-analysis of the deposited data

Results flagged for a closer look

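A closer look was prompted where a gene's HFD to LFD ratio lay below 1 in a class and above 1 in another, each with an interval that left out 1. Dpp4 had a ratio of 0.245 (0.0583 to 0.794) in macrophage-like cells, from 13 and 4 UMIs, against 6.90 in fibroblastic cells. Anxa3 had a ratio of 0.638 (0.406 to 0.982) in B-like cells, from 70 and 32 UMIs, against 4.24 in fibroblastic cells. Icam1, at 1.04 in fibroblastic cells, had a ratio of 0.565 (0.486 to 0.658) in plasma-like cells and of 1.11 in mesothelial-like cells. Ggt5 had a ratio of 0.614 (0.518 to 0.726) in the Wt1+ keratin-low cells, from 525 and 192 UMIs, against 1.71 in fibroblastic cells. Dpep1 had a ratio of 0.627 (0.500 to 0.781) in the Wt1+ keratin-low cells, from 300 and 112 UMIs, against 3.49 (1.01 to 15.2) in B-like cells, from only 4 and 10 UMIs, and 1.68 in fibroblastic cells. These differences between classes were not tested, since each diet had 1 library.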

How the results depend on the processing

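Each ratio was recomputed under 9 alternatives and the count of genes past 2-fold under 10, and no ratio that had an interval apart from 1 turned to the other side. The count was 6 under 9 of the alternatives, the interstitial set and F3 each time. It was 5 in cells with all 8 gate genes, where Pi16 (1.74) and Cd55 (1.57) were no longer past 2 and Gdf10 (3.66) was. In those cells 8.09% of the 9599 genes measured had a ratio of at least 2. Over the alternatives that changed the cells, this share ran from 6.26% (at least 4 gate genes) to 10.5% (under 5% mitochondrial UMIs). The interstitial ratio, 3.28, was 2.97 in cells under 5% mitochondrial UMIs, 2.32 in cells with all 8 gate genes, 3.02 under median-ratio scaling and 3.08 as a mean of per-cell CPM. The committed or regulatory ratio, 1.55, was 1.80 in cells under 5% mitochondrial UMIs and 1.43 under median-ratio scaling, which divides every ratio by the all-gene median of 1.08 (0.12 on the log2 scale). The share of cells with more interstitial genes was 38.2% in LFD and 44.5% in HFD among cells with all 8 gate genes, so there the diets lay closer, and 42.0% in HFD when thinned to 10000 UMIs, which left out 85 LFD and 252 HFD cells. Limiting cells to under 5% mitochondrial UMIs kept 58 LFD and 259 HFD cells, among which Icam1 had a ratio of 1.45 and Dpp4 of 9.99. Over the alternatives Icam1 ranged from 0.958 to 1.45 and Dpp4 from 3.35 to 9.99. No paired analysis was possible because each diet had 1 library. The LFD value of Dpp4 rests on 29 UMIs in 229 cells.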
